A study of Mus musculus with 4 samples.

Results

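Neurotrophins and the glial cell line-derived neurotrophic factor (GDNF) family are the 2 main groups of growth factors that peripheral neurons and neural crest cells respond to. The 8 genes described here are the neurotrophin ligands Bdnf and Ntf3 with their receptors Ntrk2 and Ntrk3, and the ligand Gdnf with its signalling receptor Ret and the co-receptors Gfra1 and Gfra3. They were selected by gene symbol, without use of their measured values, from the 46983 genes of the expression tables, and each of the 8 symbols was found under a single gene ID. Of the 8, 7 averaged 1 TPM or more over the 4 libraries and were tested, as were 16972 genes in all. TPM is the share of a library taken by a gene, scaled by transcript length.

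The RNA came from larynx tissue of mouse embryos at E10.5 (32 to 35 somites), described in the study's methods as vocal fold tissue. Poly(A)-selected RNA was sequenced from 2 pools of 3 larynxes lacking Shh (Shh-/-) and 2 pools of 3 wild-type larynxes (WT). The mutants carried the Shhtm1amc allele, a null allele of Sonic hedgehog, in every cell. By the study's methods this allele was kept on a Swiss Webster background, and the WT pools were Swiss Webster. The genotype field of the mutant samples reads Shh+/-, whereas the series text and the methods give Shh-/-. Pools are named by the numbers in their labels, 1 and 2 for Shh-/- and 4 and 6 for WT, and values are given in that order. Each pool is a separate collection of embryos, and p-values measure the spread between pools.

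Shh itself was at 10.4 and 10.8 TPM in Shh-/- against 23.7 and 42.1 TPM in WT, so transcript of the gene was present in the libraries labelled mutant, and a gene total does not separate the deleted part of the gene from the rest. Ptch1, a direct hedgehog target, fell to 12.9 and 13.8 TPM from 57.8 and 55.1 TPM in WT (adjusted p = 0.0319, limma), and Gli1, another target, was at 3.20 and 8.45 TPM against 41.7 and 32.9 TPM. The tables imply 18300000 to 41700000 aligned reads per library, fewest in Shh-/- pool 1. RNA integrity numbers were 8 and 7.7 in Shh-/- and 7.7 and 9 in WT. Haemoglobin took 1.18 to 1.85% of TPM, and all 37 mitochondrially encoded genes were listed at 0 in all 4 libraries.

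Neurotrophins are secreted ligands that bind Trk receptor tyrosine kinases. BDNF acts through TrkB, the product of Ntrk2, and neurotrophin-3 acts mainly through TrkC, the product of Ntrk3. Sensory ganglia of the head and trunk contain neurons that depend on one or another of these ligands, and the vagal ganglia that innervate the larynx are rich in BDNF-dependent neurons. GDNF binds the membrane-anchored co-receptor GFRα1, and the complex activates the kinase RET. GFRα3 pairs RET with another ligand, artemin. RET and GFRα1 are best known for guiding enteric neural crest into the gut and for kidney development, and RET also acts in cranial parasympathetic and sympathetic neurons.

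Promoter sequence from RefSeq (GRCm38.p6, the assembly called mm10) was given for 5 of the 8 genes, in 13 entries, each running from 250 bases before to 50 bases after a transcription start. The promoters of Ntrk2 and Gfra1 are shown because these receptors had the lowest adjusted p among the members, and the first of 2 Ntf3 promoters is shown as that of a ligand whose level was nearly equal in the groups. Capitals mark matches to the E-box CANNTG, the core letters bound by basic helix-loop-helix factors such as the neurogenins and Twist1, which is the same word on both strands. The windows are chr13:58806319-58806618 on the plus strand for Ntrk2, chr19:58455349-58455648 on the minus strand for Gfra1, and chr6:126166695-126166994 on the minus strand for Ntf3.
Ntrk2 promoter: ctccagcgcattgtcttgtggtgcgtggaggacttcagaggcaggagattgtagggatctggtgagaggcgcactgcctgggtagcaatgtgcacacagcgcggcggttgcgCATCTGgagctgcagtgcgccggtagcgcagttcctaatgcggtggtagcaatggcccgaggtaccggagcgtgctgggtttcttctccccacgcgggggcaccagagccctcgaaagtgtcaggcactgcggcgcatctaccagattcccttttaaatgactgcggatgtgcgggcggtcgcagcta
Gfra1 promoter: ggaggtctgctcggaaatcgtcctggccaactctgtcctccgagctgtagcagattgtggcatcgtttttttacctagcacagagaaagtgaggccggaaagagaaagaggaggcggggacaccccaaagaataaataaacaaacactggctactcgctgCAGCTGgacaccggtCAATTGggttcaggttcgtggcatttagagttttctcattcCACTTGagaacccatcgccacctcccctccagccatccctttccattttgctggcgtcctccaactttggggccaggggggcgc
Ntf3 promoter 1: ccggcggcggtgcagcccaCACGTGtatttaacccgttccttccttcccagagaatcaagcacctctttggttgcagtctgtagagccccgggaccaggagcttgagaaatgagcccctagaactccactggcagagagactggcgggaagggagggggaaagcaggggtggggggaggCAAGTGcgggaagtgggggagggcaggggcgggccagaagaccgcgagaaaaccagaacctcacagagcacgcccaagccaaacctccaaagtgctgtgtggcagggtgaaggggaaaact
Counted from 1 at the 5′ end, the E-box letters begin at position 113 in Ntrk2, at positions 161, 176 and 217 in Gfra1, and at positions 20 and 180 in Ntf3. Of 32851 promoters of this length, 72.3% hold at least 1 such word and 17.6% hold at least 3, so these matches are common ones. The Ntrk2 window has 23 CpG dinucleotides and 61.3% G and C, against medians of 7 and 52.7% over all promoters. The Gfra1 window has 12 CpG dinucleotides and 54% G and C, and the Ntf3 window 12 and 61%. None of the 13 member promoters contains the GLI motif GACCACCCA on either strand, which 0.253% of all promoters contain, or the cAMP response element TGACGTCA, which 1.79% contain. The TATA box letters TATAAA, searched on both strands and present in 13.6% of all promoters, occur in 1 of the 2 Gdnf promoters. These are matches of letters only.

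Of the 7 tested members, only Ntrk2 passed the test, and it rose in the Shh-/- larynx. The test was limma on log2(TPM + 1) with Benjamini-Hochberg adjustment over all 16972 genes and a threshold of 0.05, and log2 changes below are Shh-/- minus WT on that scale, which understates changes of low genes. At this threshold 0.56% of all tested genes were higher in Shh-/- and 0.165% were lower. Without adjustment, 2 members had p under 0.05, both higher, where 17.5% of all tested genes were higher at that level and 7.22% lower. Counting only whether pools overlap, 3 of the 7 tested members were higher in both Shh-/- pools than in both WT pools and 0 were lower, where 38% and 22.7% of all tested genes were. The median log2 change of the tested members was 0.31, beside 0.083 for all tested genes.

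**Figure D1:**
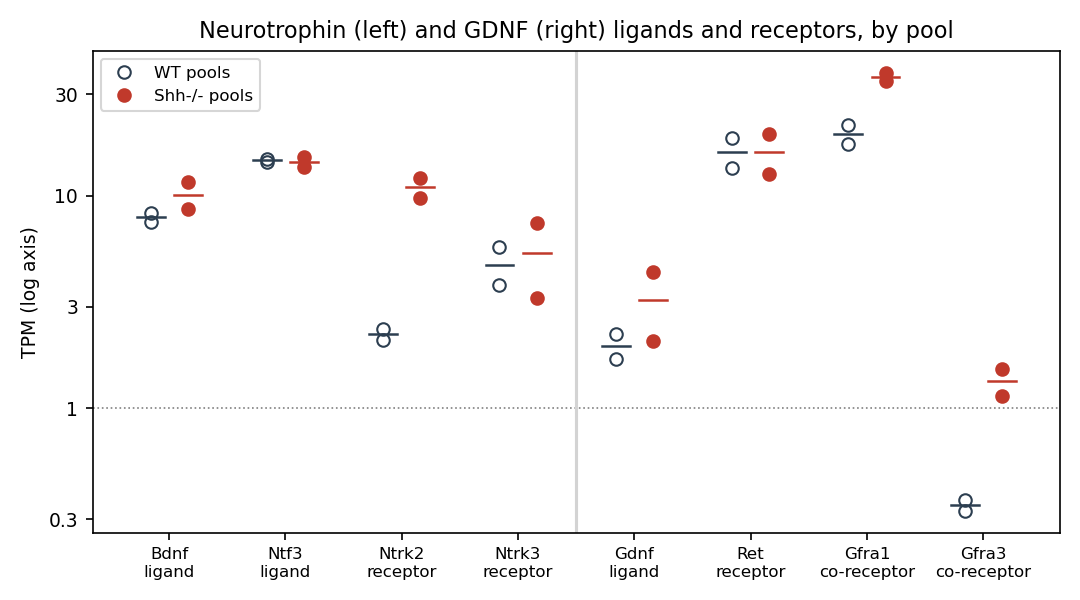
TPM of the 8 genes on a log axis, with 1 point per pool (open, WT; filled, Shh-/-) and a bar at the mean of each group of 2 pools. The groups stand apart for Ntrk2, Gfra1, Gfra3 and Bdnf, and overlap for Ntf3, Ntrk3, Gdnf and Ret; the dotted line marks 1 TPM.

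Among the ligands, Bdnf (chr2:109674700-109727007, plus strand) was at 11.5 and 8.65 TPM in Shh-/- against 7.51 and 8.29 TPM in WT. Both Shh-/- pools were above both WT pools, but Shh-/- pool 2 exceeded WT pool 6 by little. The log2 change was 0.31 (SE 0.19, 95% interval -0.19 to 0.80, adjusted p = 0.368, limma), so Bdnf did not pass, and the groups overlapped after quantile normalization or median centring. Bdnf is transcribed from many alternative first exons, and the 7 promoter entries of this gene reflect that arrangement, while the tables hold a single value for all its transcripts.

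Ntf3 (chr6:126101412-126166910, minus strand), which encodes neurotrophin-3, was at 13.7 and 15.2 TPM in Shh-/- against 14.4 and 14.9 TPM in WT. The WT values lay between the Shh-/- values. The difference was -0.024 (SE 0.14), and its 95% interval of -0.38 to 0.33 was the narrowest of the tested members (adjusted p = 0.929, limma).

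Gdnf (chr15:7811011-7837575, plus strand) was the least abundant ligand. It was at 4.37 and 2.06 TPM in Shh-/- against 2.24 and 1.70 TPM in WT. The groups overlapped, since only Shh-/- pool 1 stood above the WT pools. The log2 change was 0.46 (SE 0.33, 95% interval -0.40 to 1.31, adjusted p = 0.419, limma), and it was 0.050 without Shh-/- pool 1. Gdnf has a single annotated transcript, so its coverage corresponds to about 141, 157, 156 and 123 reads in the 4 pools at the inferred read length. These read numbers are not scaled to library size, and 141 reads are a larger share of Shh-/- pool 1, the library with the fewest aligned reads.

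Ntrk2 (chr13:58806596-59133970, plus strand), the BDNF receptor TrkB, was at 9.73 and 12.1 TPM in Shh-/- against 2.1 and 2.35 TPM in WT. All Shh-/- values were far above all WT values, with no overlap. The means were 10.9 ± 1.68 and 2.22 ± 0.17 TPM (SD, n = 2 pools each), a ratio of 4.91. On the log2(TPM + 1) scale Ntrk2 rose by 1.88 (SE 0.19, 95% interval 1.39 to 2.37, adjusted p = 0.0448, limma). Only 114 of the 16972 tested genes, or 0.672%, had a larger log2 change. In GENCODE the coding transcripts of Ntrk2 run from 466 to 821 codons, and forms without the kinase domain are well known for this gene. The tables hold 1 value for all of them, so kinase and truncated forms were not separated.

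The Ntrk2 change lay between 1.58 and 2.24 over 11 alternative settings, and 1.74 to 2.02 when 1 pool was left out. Settings that alter only the filter, variance model or threshold cannot move its size. The adjusted p of Ntrk2 (limma) lay close to the threshold. It was under the threshold in 7 of the 11 settings, counting the looser threshold of 0.1. The call was lost without a filter on low TPM (0.148) and with a filter at 5 TPM (0.0530). It was also lost after quantile normalization (0.0506) and after correction for GC content and transcript length (0.0549). Leaving out any single pool also lost the call, with adjusted p of 0.136 without Shh-/- pool 1, 0.113 without Shh-/- pool 2, 0.169 without WT pool 4 and 0.155 without WT pool 6. The lone pool that remained was then assumed to vary like the other group.

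Ntrk3 (chr7:78175959-78738012, minus strand), the neurotrophin-3 receptor TrkC, did not pass. It was at 3.31 and 7.41 TPM in Shh-/- against 3.78 and 5.70 TPM in WT. The WT values lay inside the range of the Shh-/- values. The log2 change was 0.090 (SE 0.38, 95% interval -0.90 to 1.08, adjusted p = 0.897, limma), and it was -0.041 after quantile normalization and -0.038 after median centring, -0.39 without Shh-/- pool 2 and -0.15 without WT pool 4. Ntrk3 has 20 annotated transcripts with very different lengths, and FPKM exceeded library-scaled coverage 15.0 to 24.8 times depending on the pool. From coverage alone the log2 ratio of group means was -0.23, where TPM gave 0.18. The interval holds both decreases and increases. Its ends are not adjusted for the number of genes, and at this SE only a much larger change would pass after adjustment. For scale, Phox2a, with an SE of 0.30, passed narrowly at a log2 change of 2.59 (adjusted p = 0.0493, limma).

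**Figure D2:**
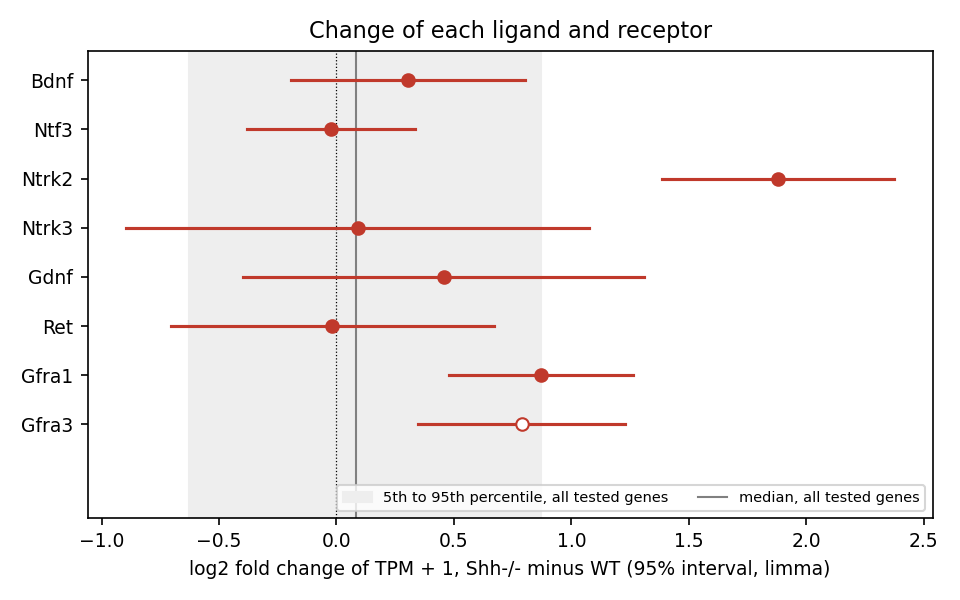
Log2 change of each gene (Shh-/- minus WT, log2(TPM + 1)) with its 95% interval from limma; grey shading spans the 5th to 95th percentile of all tested genes (-0.63 to 0.87) and the grey line their median. Ntrk2 lies outside the shaded range at 1.88, Gfra1 at its edge at 0.87, and the open point for Gfra3 comes from the fit without a filter on low TPM.

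Ret (chr6:118151745-118197718, minus strand), the kinase shared by the whole GDNF family, was at 12.6 and 19.5 TPM in Shh-/- against 18.7 and 13.5 TPM in WT. Each group had a higher and a lower pool and they overlapped fully. The log2 change was -0.018 (SE 0.27, 95% interval -0.71 to 0.67, adjusted p = 0.970, limma). It was 0.28 without Shh-/- pool 1 and 0.20 without WT pool 4, so its sign rests on single pools.

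Gfra1 (chr19:58235604-58455909, minus strand), the co-receptor for GDNF, was at 34.5 and 37.8 TPM in Shh-/- against 21.4 and 17.4 TPM in WT. Both Shh-/- pools were above both WT pools. The means were 36.2 ± 2.37 and 19.4 ± 2.83 TPM (SD, n = 2 pools each), a ratio of 1.86. The log2 change of 0.87 (SE 0.15, 95% interval 0.48 to 1.26) did not pass at the threshold of 0.05 (adjusted p = 0.0808, limma) and would at 0.1. It stayed positive, at 0.67 to 0.90 over 11 alternative settings and 0.73 to 1.01 without 1 pool. Of all tested genes, 4.99% had a larger log2 change.

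Gfra3 (chr18:34689903-34720387, minus strand), the artemin co-receptor, was the least abundant member and failed the filter with a mean of 0.843 TPM. It was at 1.14 and 1.53 TPM in Shh-/- against 0.369 and 0.329 TPM in WT. The pools did not overlap, and the ratio of means was 3.84. Its single transcript was covered by about 20 and 64 reads in the Shh-/- pools and 14 and 13 reads in the WT pools, so counting error is large. In the fit without a filter the log2 change was 0.79 (SE 0.16, adjusted p = 0.179, limma). Because the pseudocount of 1 exceeds its WT level, this log2 change is much smaller than the ratio.

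TPM is scaled by transcript length, so levels can be ordered between genes. In WT larynx the order from high to low was Gfra1, Ret, Ntf3, Bdnf, Ntrk3, Ntrk2, Gdnf and Gfra3. The WT pools of Gfra1 and Ret, of Ret and Ntf3, and of Ntrk2 and Gdnf overlapped, so those neighbours cannot be ordered. In Shh-/- larynx the order was Gfra1, Ret, Ntf3, Ntrk2, Bdnf, Ntrk3, Gdnf and Gfra3, with overlap between Ret and Ntf3, Ntrk2 and Bdnf, and Ntrk3 and Gdnf. The places of Ntrk3 and Bdnf rest on how FPKM and TPM were derived from coverage in genes of many transcripts. By the coverage column Ntrk2 was above both in all 4 pools, at 1.5 and 1.73 in WT where Ntrk3 was at 0.357 and 0.460 and Bdnf at 0.821 and 0.946. By TPM Gfra1 stood clear of Ret in the mutant and not in WT.

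Ratios within a pool do not depend on the scaling of that library. Ntrk2 over Ntrk3 was 2.94 and 1.63 in Shh-/- against 0.556 and 0.412 in WT. The ratio was thus higher in both mutant pools. Which of the pair was the more abundant in WT depended on the measure, since the ratio of the coverage column was 26.2 and 20.6 in Shh-/- against 4.21 and 3.76 in WT, above 1 in every pool. Ntrk2 over Bdnf, receptor over its ligand, was 0.845 and 1.40 against 0.280 and 0.283, and by coverage 5.57 and 9.27 against 1.83 and 1.83. Gfra1 over Ret, co-receptor over kinase, was 2.74 and 1.94 against 1.15 and 1.29. These ratios separated the groups by TPM and by coverage, while Ntrk3 over Ntf3 overlapped at 0.242 and 0.488 against 0.261 and 0.382. Gdnf over Ret was 0.347 and 0.106 against 0.120 and 0.126, and the groups overlapped. Gdnf over Gfra1 overlapped too, at 0.127 and 0.0545 against 0.105 and 0.0974. Gfra1 over Gfra3 was lower in Shh-/-, at 30.2 and 24.7 against 58.0 and 52.9. Bdnf over Ntf3 was 0.842 and 0.569 against 0.520 and 0.556, with the groups apart by a small margin.

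**Figure D3:**
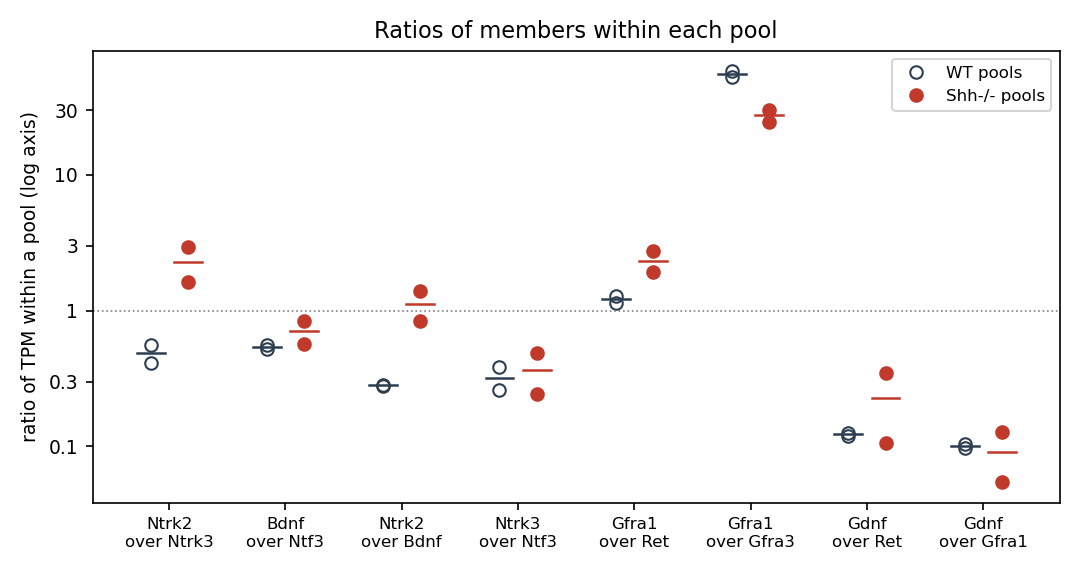
Ratio of the TPM of 2 members within each pool, on a log axis, with 1 point per pool (open, WT; filled, Shh-/-) and a bar at the mean ratio of each group. Ntrk2 over Ntrk3 is higher in both Shh-/- pools than in both WT pools, with TPM ratios of 0.556 and 0.412 in WT where coverage gives 4.21 and 3.76, and Ntrk3 over Ntf3 overlaps.

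Further receptors and ligands of the 2 systems were taken from gene lists. Of 15 other neurotrophin system genes, 14 were tested, 1 passed (higher), and the median log2 change was 0.35, or 0.016 after correction for GC content and transcript length. The gene that passed was Ngfr, the p75 receptor shared by all neurotrophins. It was at 38.5 and 35.5 TPM in Shh-/- against 12.2 and 8.66 TPM in WT, and rose by 1.75 (SE 0.19, adjusted p = 0.0470, limma). Its groups were wide apart. Ngfr passed in 7 of 10 other settings and did not pass when any single pool was left out. Lingo1, a partner of p75, was at 2.54 and 3.22 TPM against 0.920 and 0.836 TPM (log2 change 1.04, adjusted p = 0.101, limma). Lingo1 did not pass, though its pools did not overlap. Ntf5, the other TrkB ligand, was at 5.83 and 6.22 TPM against 4.98 and 6.09 TPM. Its groups overlapped.

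Of 10 other GDNF family genes, 7 were tested, 1 passed (higher), and the median log2 change was 0.95, or 0.50 after correction for GC content and transcript length. The gene that passed was Gas1, whose product is related to the GFRα co-receptors, binds RET, and is also a co-receptor for hedgehog ligands. Gas1 was at 158 and 136 TPM in Shh-/- against 45.5 and 33.1 TPM in WT and rose by 1.89 (SE 0.18, adjusted p = 0.0422, limma). Its groups did not overlap. Gas1 passed in 8 of 10 other settings and did not pass with any single pool left out. Ncam1, an alternative receptor for GDNF with GFRα1, was at 16.9 and 24.2 TPM against 7.25 and 6.51 TPM (log2 change 1.43, adjusted p = 0.0680, limma). Gfra2, the neurturin co-receptor, was at 5.78 and 5.46 TPM against 2.60 and 1.53 TPM (log2 change 1.13, adjusted p = 0.103, limma). These 2 genes were higher in both Shh-/- pools without passing. The ligand Nrtn was at 4.19 and 5.09 TPM against 3.32 and 3.60 TPM (log2 change 0.33, adjusted p = 0.327, limma), and Gfral was listed at 0 in every pool.

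Downstream, 20 of 22 adaptors and kinases shared by Trk and RET receptors were tested and 0 passed with limma, though 7 were higher and 0 lower when p under 0.05 was taken without adjustment, with a median log2 change of 0.40, or 0.10 after correction for GC content and transcript length. The largest with pools apart were Shc2 (0.86, adjusted p = 0.0806), Dok5 (0.84, adjusted p = 0.154) and Shc1 (0.64, adjusted p = 0.103, all limma), which encode docking proteins. Of 12 response and feedback genes of receptor tyrosine kinase signalling, 11 were tested and 0 passed with limma, though 7 were higher and 0 lower when p under 0.05 was taken without adjustment, with a median of 0.71. Here the Sprouty inhibitors were largest, with Spry1 at 1.42 (adjusted p = 0.0887), Spry2 at 1.35 (adjusted p = 0.0631) and Spry4 at 1.33 (adjusted p = 0.104, all limma). These genes also respond to fibroblast growth factors and other ligands.

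**Figure D4:**
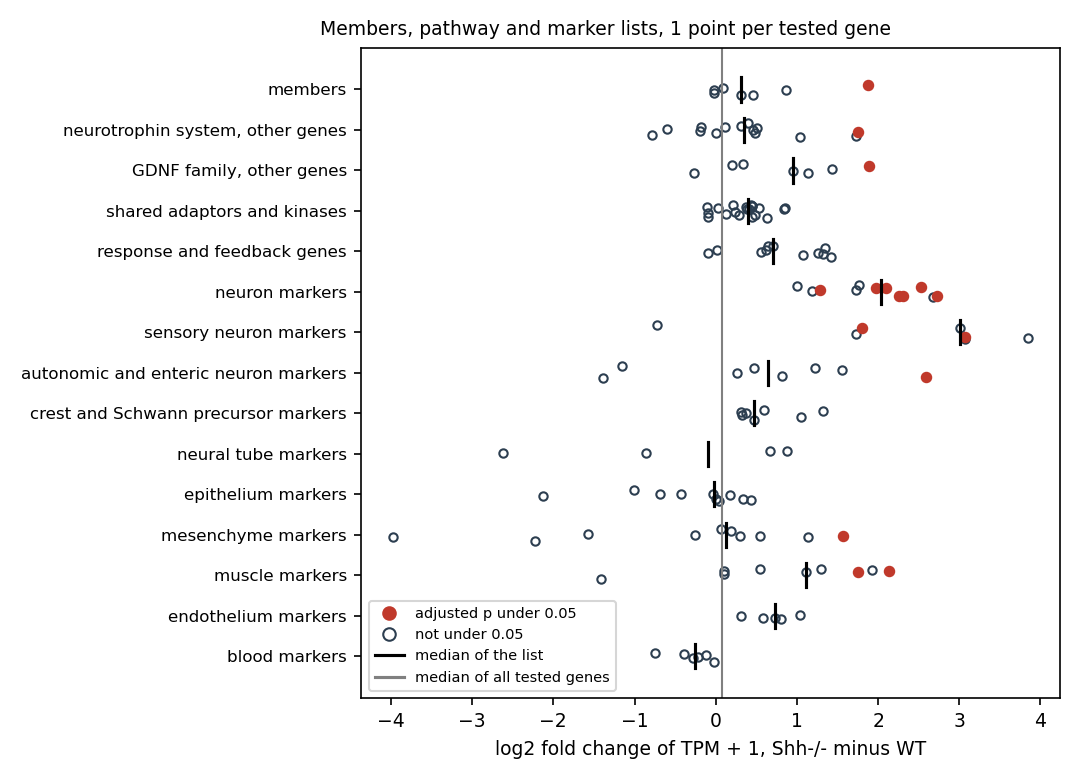
Log2 change (Shh-/- minus WT, log2(TPM + 1)) of each tested gene of the 7 tested members and of each gene list, filled where adjusted p was under 0.05, with the list median in black and the median of all tested genes in grey. The neuron list lies wholly to the right, with a median of 2.03, while the members spread from -0.024 to 1.88.

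Neuron markers moved with the groups. Of 12 general neuron markers, 12 were tested, 7 passed and all 12 had pools apart with higher values in Shh-/-, and their summed level was 855 and 939 TPM in Shh-/- against 227 and 154 TPM in WT. The genes that passed were Tubb3, Stmn2, Stmn3, Elavl3, Ina, Nefl and Gap43. The count was 5 with a pseudocount of 0.1, 6 of 11 tested with a filter at 5 TPM and 3 without a trend in the variance model. It was 0 without a filter on low TPM and 7 in the other settings with all pools at the threshold of 0.05. The βIII-tubulin gene Tubb3 rose by 2.72 (adjusted p = 0.0422), the neurofilament gene Nefl by 2.53 (adjusted p = 0.0449) and Stmn2 by 2.30 (adjusted p = 0.0319, all limma). Without each single pool in turn, 0 of the 12 passed, while their median stayed at 1.87 to 2.26. Over all genes those fits called 0 to 16, and 2070 to 3761 had p under 0.05 before adjustment. Nefm, another neurofilament gene, was at 2.68 (adjusted p = 0.0595, limma). In bulk tissue, more cells of a type and more RNA of a gene per cell cannot be told apart.

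Markers of single neuron classes were listed separately. Of 10 sensory neuron markers, 7 were tested and 2 passed, Prph (1.80, adjusted p = 0.0466) and Tlx3 (3.07, adjusted p = 0.0412, both limma), and the summed level was 176 and 162 TPM against 109 and 122 TPM, of which Isl1 made up most in WT. Prph and Tlx3 did not pass with any single pool left out (adjusted p 0.111 to 0.181 and 0.0934 to 0.144), and Prph passed in 3 of 10 other settings and Tlx3 in 8. Neurog2, which specifies sensory precursors of the placodes and crest, was at 31.4 and 28.7 TPM against 3.45 and 0.0453 TPM (3.85, adjusted p = 0.0828), and Neurod4 at 16.3 and 12.5 TPM against 1.51 and 0.315 TPM (3.07, adjusted p = 0.0525, both limma). WT pool 6 was the lower WT pool for both. Isl1, which is not restricted to neurons, went the other way at 68.3 and 57.3 TPM against 93.1 and 116 TPM (-0.72, adjusted p = 0.104, limma). Of 8 autonomic and enteric neuron markers, all were tested and 1 passed, Phox2a (2.59, adjusted p = 0.0493, limma), with summed levels of 195 and 167 TPM against 107 and 89.5 TPM and a median log2 change of 0.64, or 0.29 after correction for GC content and transcript length. Phox2a passed in 6 of 10 other settings and did not pass with any single pool left out. Within that list Chrna3 was at 1.56 (adjusted p = 0.0883, limma). Of 8 neural crest and Schwann precursor markers, 7 were tested and 0 passed with limma, while 4 (all higher) had p under 0.05 before adjustment. Their summed level was 148 and 129 TPM against 90.9 and 79.5 TPM, with Fabp7 at 1.32 (adjusted p = 0.0595), Sox10 at 1.05 (adjusted p = 0.109) and Erbb3 at 0.60 (adjusted p = 0.192, all limma).

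Markers of neural tube were low, and the amount of that tissue in the pools was not tested. The 8 markers of that tissue summed to 3.70 and 5.92 TPM in Shh-/- against 18.7 and 9.03 TPM in WT, Lhx3 and Dbx1 were listed at 0 in every pool, and 0 of the 4 tested passed with limma, while 4 (2 higher, 2 lower) had p under 0.05 before adjustment. Nkx6-1 was at -2.62 (adjusted p = 0.118), Pax6 at 0.88 (adjusted p = 0.123) and Mnx1 at -0.86 (adjusted p = 0.145, all limma). Of the 8, only Nkx6-1 averaged 5 TPM or more, so the sum leans on that gene and does not measure the amount of neural tube. General markers of epithelium and mesenchyme were present in all pools, and the organ they came from was not tested. Epithelium markers summed to 717 and 628 TPM against 654 and 669 TPM (10 tested, 0 passed, 1 higher and 2 lower unadjusted). Mesenchyme markers summed to 944 and 868 TPM against 771 and 784 TPM (10 tested, 1 passed, Twist1 at 1.57). The means of log2(TPM + 1) over these lists differed by -0.33 for epithelium and -0.42 for mesenchyme, Shh-/- minus WT. Largest among the epithelium markers were Foxa2 at -2.13 (adjusted p = 0.0602), Foxa1, lower in both Shh-/- pools (adjusted p = 0.102), and Trp63 at -0.69 (adjusted p = 0.279, all limma). Largest among the mesenchyme markers were Foxf1 at -3.97 (adjusted p = 0.0976), Tbx5 at -2.23 (adjusted p = 0.106) and Osr1 at -1.58 (adjusted p = 0.0966, all limma). Muscle markers summed to 179 and 214 TPM against 116 and 112 TPM (9 of 11 tested, 2 passed, Myh6 at 1.76 and Myh7 at 2.13, beside Tnnt2 at 1.93, with 5 higher and 1 lower unadjusted, the lower being Nkx2-5 at -1.42, adjusted p = 0.0697, limma), and endothelium markers to 249 and 285 TPM against 172 and 166 TPM (5 tested, 0 passed, 5 higher unadjusted, the largest Tek at 1.03, Kdr at 0.80 and Emcn at 0.73). Of 6 blood markers 0 passed with limma, 0 had p under 0.05 before adjustment and 1 had pools apart.

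Setting each member against the mean log2(TPM + 1) of the neuron markers in the same pool divided the receptors. That mean was 5.30 and 5.39 in Shh-/- against 3.63 and 3.15 in WT. Relative to it, Ntrk2 was at -1.88 and -1.68 in Shh-/- against -1.99 and -1.40 in WT, so its groups overlapped and the difference was -0.080. Ret was at -1.54 and -1.04 against 0.67 and 0.71, a difference of -1.98 with the groups apart. Gfra1 was at -0.15 and -0.11 against 0.86 and 1.06, a difference of -1.09, also with the groups apart. The differences were -1.87 for Ntrk3, -1.17 for Gfra3, -1.50 for Gdnf, -1.65 for Bdnf and -1.98 for Ntf3. On this scale Ntrk2 was thus the member whose level kept nearest to that of the neuron markers across the 4 pools. Each difference is the member's log2 change minus that of the list mean, 1.96, so the differences restate the changes given above. Against the sensory neuron list the difference of Ntrk2 was -0.38, and the groups again overlapped.

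Against the neural crest and Schwann precursor list the arrangement was another. Ntrk2 was at -0.82 and -0.27 in Shh-/- against -1.96 and -1.62 in WT, a difference of 1.25 with the groups apart. Gfra1 was at 0.91 and 1.3 against 0.90 and 0.84, a difference of 0.24 with the groups narrowly apart, and Gfra3 differed by 0.15 with overlapping groups. Ret was at -0.47 and 0.37 against 0.71 and 0.49, a difference of -0.65. The differences were -0.18 for Gdnf, -0.33 for Bdnf, -0.54 for Ntrk3 and -0.66 for Ntf3. On the log2(TPM + 1) scale, Ntrk2 alone of the 8 members had a smaller difference against the neuron list than against this list. For Gfra3 this may depend on the scale, since the pseudocount of 1 exceeds its WT level and its ratio of means was 3.84. Against the autonomic and enteric list the differences were 1.33 for Ntrk2, 0.32 for Gfra1, 0.24 for Gfra3 and -0.57 for Ret. The part of these cell types in the members' values was not tested.

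**Figure D5:**
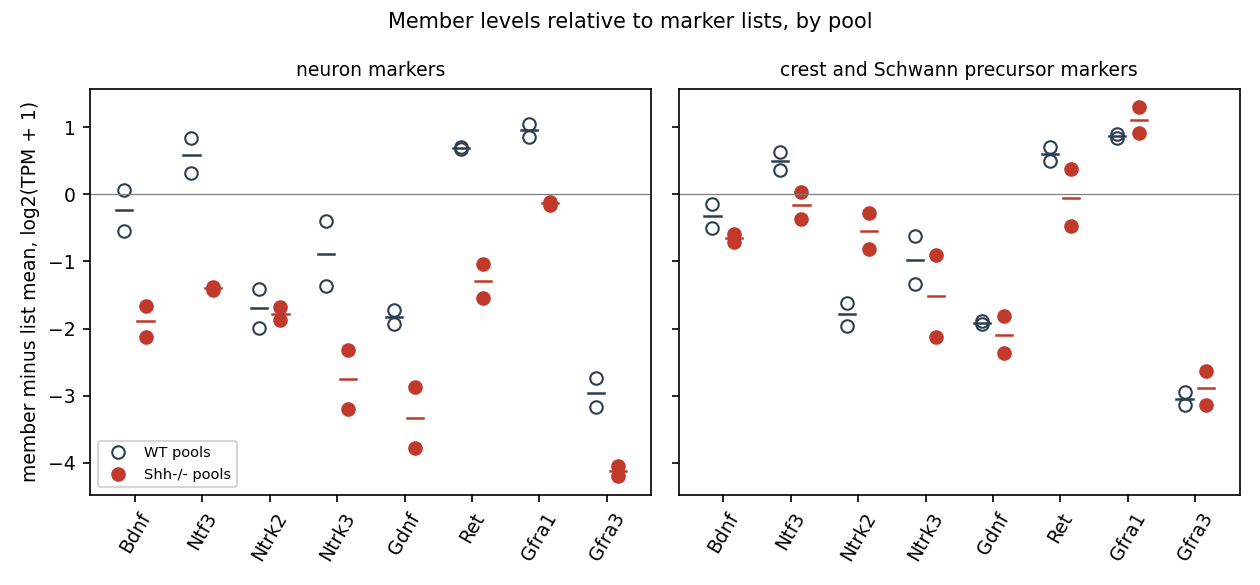
Level of each member minus the mean of the neuron markers (left) or of the neural crest and Schwann precursor markers (right) in the same pool, in log2(TPM + 1), with 1 point per pool (open, WT; filled, Shh-/-) and bars at group means. On the left only Ntrk2 overlaps between groups; on the right Ntrk2 is higher in both Shh-/- pools.

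Among the 12531 genes with a mean of at least 5 TPM that were compared, the gene whose centred log2(TPM + 1) profile over the 4 libraries lay nearest to Ntrk2 was Rpl29, at 194 and 266 TPM in Shh-/- against 59.8 and 57.9 TPM in WT (Euclidean distance 0.171). Rpl29 encodes a ribosomal protein, a family with many near-identical pseudogenes that can share reads, so its value is uncertain. The nearest profile was that of Arap3 for Gfra1 (distance 0.0592), Met, another receptor tyrosine kinase, for Ntrk3 (0.0785), Gm14251 for Ret (0.0427), Haghl for Gdnf (0.0559), Apobec3 for Bdnf (0.0194) and Txndc12 for Ntf3 (0.0105). With 4 libraries many genes have like profiles, and these names are a description.

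Genes that overlap a member in the tables held few reads. Ntrk3 is overlapped by Gm9885 and by 3 genes named only by a clone, none above 0.747 TPM in any pool, and Gfra1 by Gm16277, listed at 0. The coverage column gave nearly the same log2 ratio of group means as TPM for Ntrk2 (2.29 and 2.30), Gfra1 (0.81 and 0.90) and Gfra3 (1.91 and 1.94). For Bdnf, FPKM was 13.0 times the library-scaled coverage in every pool, a constant factor of its transcript structure that does not enter the comparison of groups.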

How the data were processed

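Each of the 4 libraries has a table of genes with coverage, FPKM and TPM. Per the labels and the study's methods, the authors made directional poly(A) libraries that were read from a single end, mapped to mm10 by HISAT2 2.1.0 and turned into gene values by StringTie 1.3.6. The annotation release and strand setting are not given in the sources used here. The deposited coverage signal is the mean read depth over a gene, not normalized between libraries. The deposited FPKM values were scaled by the authors to library size and length, and the deposited TPM values sum to the same total in each library. No read counts are used, and read numbers are approximations from coverage at an inferred read length of 75 nt.

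Rows of a gene ID were summed, and log2(TPM + 1) was fitted with limma 3.58.1 in R 4.3.3 (lmFit, eBayes with trend, no covariate) for genes with a mean of at least 1 TPM, with Benjamini-Hochberg adjustment. An exact permutation test of 2 against 2 pools cannot give p below 0.333, so none is reported. The fit was tested on simulated data. The members, the gene lists and the tests were chosen with earlier results of these data known and give no independent support. The genes named are the members, Shh, Ptch1 and Gli1, the list genes past the threshold, the 3 largest changes with pools apart in each list, the nearest profile of each member and overlapping genes. Genes named beyond that rule (Ntf5, Nrtn, Gfral, Isl1) were chosen after their values were seen. Some genes that the rule names are not reported here. Alternatives covered the pseudocount, filter, scaling, GC content and transcript length, variance model, threshold and each pool left out. Coverage in place of TPM and ratios within a library, by TPM and by coverage, were added after seeing the data. GENCODE M21 gave transcript structures, and coordinates are those of the tables (mm10).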

Additional observations from a re-analysis of the deposited data

How the results depend on the processing

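No paired analysis was possible because the labels number the pools 1 and 2 in Shh-/- and 4 and 6 in WT, so that the groups share no replicate number. The number of genes called by limma, 123 in the reported fit, was 69 with a pseudocount of 0.1, 0 without a filter on low TPM (5011 at an unadjusted p under 0.05), 858 at an adjusted p of 0.1, and 0 to 16 with 1 pool left out (2070 to 3761 at an unadjusted p under 0.05). The number of members called, 1 in the reported fit, was 0 without a filter, with a filter at 5 TPM, after quantile normalization and after correction for GC content and transcript length, 2 at an adjusted p of 0.1, and 0 with any single pool left out. The cause was not tested, except that the fit without a filter adjusts over more genes and the fits without a pool have fewer samples. Direction changed for 3 members, none of which passed in any setting: Ntrk3 was -0.041 after quantile normalization, -0.038 after median centring and -0.39 to 0.57 without 1 pool, Ntf3 -0.094 to 0.047 and Ret -0.31 to 0.28 without 1 pool. Median centring lowered the median of all genes by 0.128 on the log2 scale. The other 4 tested members kept their direction in every setting run. With 2 pools a group, and 18300000 reads in the smallest library, the intervals of Ntrk3 and Gdnf were the widest of the tested members. Those intervals are not adjusted for the number of genes. At their SE, log2 changes of these genes would have to lie well beyond them to pass after adjustment.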
